A study of Mus musculus with 6 samples.

Results

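The 8 genes described here encode light chains of conventional myosin: Myl1, Myl2, Myl3, Myl4, Myl6, Myl7, Myl9 and Mylpf. They were taken as a gene family, 8 of 19938 named genes on the array, with earlier results of these data known. For each gene, the probe set with exactly 1 gene symbol in the platform annotation and the highest mean log2 value over the 6 mice was used. RNA came from the cardiac ventricles of mice at postnatal day 17, with 3 wild-type (WT) littermates and 3 miR-499 transgenic (TG) mice of line TG-17. The transgene was a genomic fragment holding the miR-499 precursor with flanking sequence, placed behind the alpha-myosin heavy chain (Myh6) promoter, which is active in heart muscle cells, and it was injected into FVB/NCrl embryos. All TG mice came from 1 transgenic line, and the labels gave neither sex nor batch, so effects of the insertion site and of the microRNA cannot be told apart.

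A head of conventional myosin carries an essential and a regulatory light chain, which stiffen the lever arm between motor and rod. In the heart the pairs differ by chamber: Myl4 (essential) and Myl7 (regulatory) are the atrial forms, and Myl3 (essential) and Myl2 (regulatory) are the ventricular forms. Myl4 is also made in the embryonic ventricle and in embryonic skeletal muscle, and Myl7 is found in the whole embryonic heart tube before it is restricted to the atria. Myl1 and Mylpf are the essential and regulatory forms of fast skeletal muscle, while Myl6 and Myl9 are the forms of smooth muscle and non-muscle cells. Phosphorylation of the regulatory light chains by myosin light chain kinases tunes the force of contraction.

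The mature microRNA of the transgene and the 250 bases upstream of the starts of Myl4, Myl7 and Myl3 are shown. Myl4 and Myl7 were the members that differed most between the groups, and Myl3 is the ventricular counterpart of Myl4. The sequences are those of RefSeq on GRCm38.p6. Capitals in the microRNA mark the seed, bases 2 to 8 of miR-499-5p, which is encoded on the plus strand at chr2:155622893-155622913. The windows lie at chr11:104550413-104550662 (plus strand) for Myl4, chr11:5898783-5899032 (minus strand) for Myl7 and chr9:110763428-110763677 (plus strand) for Myl3. Capitals in the windows mark matches, on either strand, to GATAA (a core of the GATA factors' site), to the TEAD factors' core CATTCC, to the CArG box of serum response factor and to the MEF2 site.
mmu-miR-499-5p: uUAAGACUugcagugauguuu
Myl4: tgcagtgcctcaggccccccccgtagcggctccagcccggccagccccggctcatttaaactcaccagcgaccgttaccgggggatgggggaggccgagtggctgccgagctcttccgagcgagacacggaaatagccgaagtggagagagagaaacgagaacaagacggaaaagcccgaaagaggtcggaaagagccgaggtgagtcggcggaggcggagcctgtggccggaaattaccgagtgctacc
Myl7: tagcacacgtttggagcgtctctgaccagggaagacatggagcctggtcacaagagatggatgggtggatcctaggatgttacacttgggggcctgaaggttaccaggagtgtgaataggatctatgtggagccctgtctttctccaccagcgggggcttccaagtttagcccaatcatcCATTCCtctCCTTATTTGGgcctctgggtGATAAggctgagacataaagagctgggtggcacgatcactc
Myl3: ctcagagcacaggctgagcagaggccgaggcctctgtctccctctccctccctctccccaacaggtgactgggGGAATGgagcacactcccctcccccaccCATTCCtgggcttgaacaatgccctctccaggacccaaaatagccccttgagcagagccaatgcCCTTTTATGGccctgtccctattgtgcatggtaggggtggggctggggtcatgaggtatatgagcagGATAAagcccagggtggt
The Myl4 window held no match to any of these 4 motifs, nor to the E-box CANNTG or to the letters TCACAC of a T-box core, which were searched on both strands as well and are not capitalised. The Myl7 window held 1 CATTCC, 1 CArG box and 1 GATAA, and the Myl3 window held the same 3 kinds of match, with CATTCC present 2 times. The E-box pattern was found 1 time in each of these windows and the T-box core 1 time in that of Myl7. No match overlapped another motif. A CArG box was also present in the Myl9 window and in 1 of the 2 windows of Myl6. Neither window of Myl2, the other ventricular form, held a CArG box or a CATTCC. Over 32851 RefSeq windows of the same length, a CArG box was found in 1.47%, the GATA core in 22.6%, the TEAD core in 12.6%, a MEF2 site in 2.92%, the E-box in 66.2% and the T-box core in 12.3%. The match is a description of letters, and binding was not measured here.

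Mir499, the gene the transgene carries, checked the labels first. Its log2 values were 5.48, 5.34 and 5.68 in the WT mice and 9.31, 9.33 and 8.87 in the TG mice. Every TG ventricle stood far above every WT ventricle, and the mean rose 12.7-fold (adjusted p = 0.00772, limma). Of all 35556 probe sets, 130 had a log-odds of change (B) above 0, the threshold for a call used here (0.366%). Among these, 75 were lower in TG (0.211%) and 55 were higher (0.155%), and 2 probe sets passed an adjusted p of 0.05 (0.00562%). With each array centred on its median, the split became 40 lower and 96 higher. The general heart muscle markers (Myh6, Tnnt2, Tnni3 and 5 others) averaged 13.58 to 13.61 in WT and 13.56 to 13.59 in TG on the log2 scale, against array medians of 6.89 to 6.95, and none was called.

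Of the 8 light chain genes, Myl4 and Myl7 fell in TG ventricles and no member rose at B above 0. Both fell by a little over 1.5-fold, the ventricular pair moved by at most 0.12 on the log2 scale, and the other 4 members gave no call. The share of named genes called in either direction, with 1 probe set a gene, was 0.341%. The median log2 fold change of the 8 members was -0.082, against -0.014 over all probe sets. No light chain gene passed an adjusted p of 0.05. In bulk tissue, fewer cells of a type and less RNA per cell cannot be told apart.

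Myl4, the atrial and embryonic essential light chain, had log2 values of 9.98, 9.67 and 10.03 in the WT mice and 9.26, 9.27 and 9.18 in the TG mice. All 3 TG mice lay below the lowest WT mouse, with a gap of 0.40. The mean fell from 9.89 ± 0.19 to 9.24 ± 0.050 (SD, n = 3 each), a log2 fold change of -0.66 (SE 0.10, 95% confidence limits -0.91 to -0.41), or 1.58-fold. The limma fit over all probe sets gave B = 0.21 and an adjusted p of 0.205.

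Myl7, the atrial regulatory light chain, had log2 values of 9.345, 8.995 and 9.226 in the WT mice and 8.51, 8.60 and 8.54 in the TG mice. Again all TG mice lay below all WT mice, here by a gap of 0.39. The mean fell from 9.19 ± 0.18 to 8.55 ± 0.050 (SD, n = 3 each), a log2 fold change of -0.64 (SE 0.097, 95% confidence limits -0.87 to -0.40), or 1.56-fold. This gave B = 0.36 and an adjusted p of 0.205 (limma). Counted from the most negative fold change among the 19938 named genes, Myl4 was number 10 and Myl7 number 11.

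Both calls sat close to the threshold. Neither gene kept B above 0 with each array centred on its median or with a block for the replicate number. Both calls were also lost without WT replicate 1, WT replicate 3 or any 1 of the TG mice. Of the 16 alternatives, only rescaled arrays, array weights and leaving out a mouse could change the log2 fold changes themselves. Under these they ran from -0.77 to -0.59 for Myl4 and from -0.74 to -0.56 for Myl7. The other alternatives leave the fold change as it is by design. Of the 6 fits that left out 1 mouse, only the one without WT replicate 2 kept both calls: this mouse was the lowest of the WT mice for both genes.

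**Figure D1:**
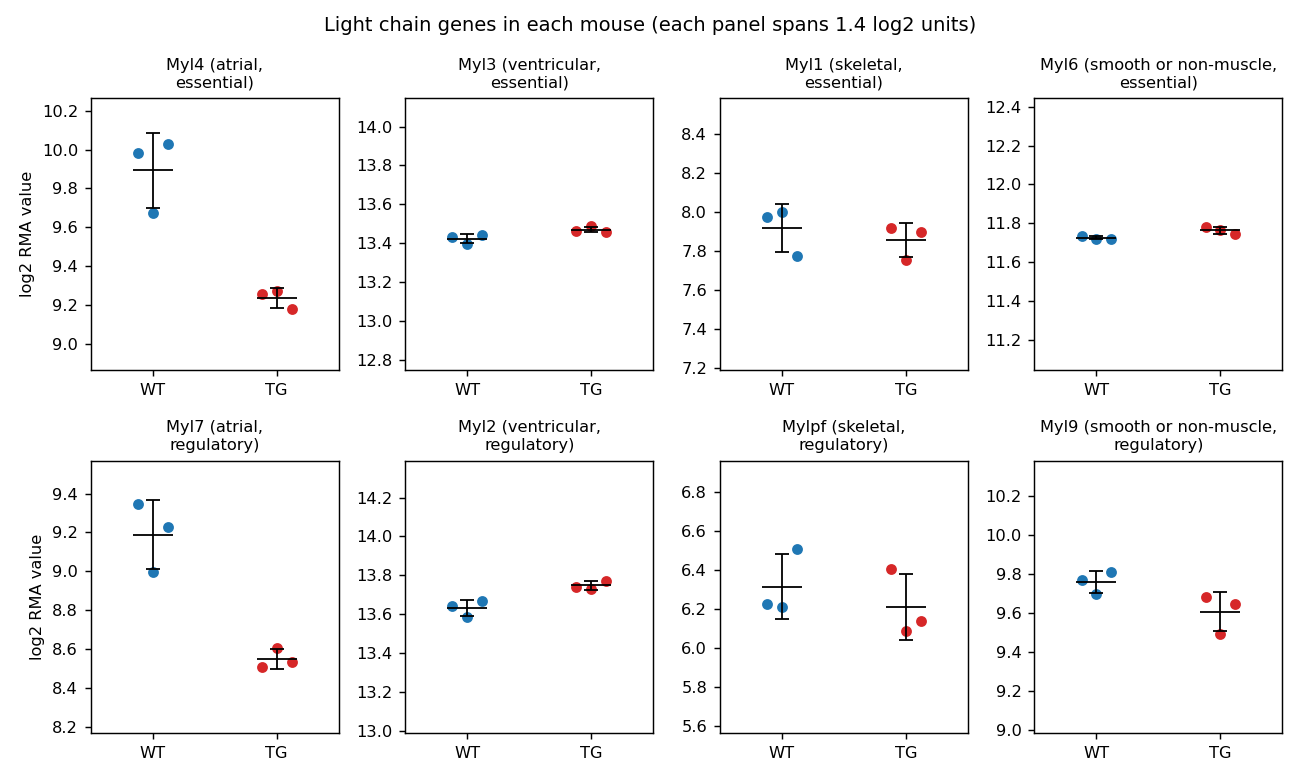
Log2 RMA value (vertical axis) of each light chain gene in each of the 3 WT (blue) and 3 TG (red) mice, with the mean and SD in black, essential forms above and regulatory forms below. In the Myl4 and Myl7 panels the TG points sit at 9.18 to 9.27 and 8.51 to 8.60, below all WT points, while the points of the other members move little within the same span of 1.4 log2 units.

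Myl3, the ventricular essential light chain, had log2 values of 13.43, 13.40 and 13.44 in WT and 13.46, 13.49 and 13.46 in TG. The TG values lay above the WT values, but by a gap of only 0.017. The log2 fold change was 0.046 (SE 0.046, 95% confidence limits -0.067 to 0.16, adjusted p = 0.655, limma). Myl2, the ventricular regulatory light chain, had log2 values of 13.64, 13.59 and 13.67 in WT and 13.74, 13.73 and 13.77 in TG. Again the groups did not overlap, with TG above WT. The log2 fold change of Myl2 was 0.12 (SE 0.050, 95% confidence limits -0.0038 to 0.24), which did not pass the test (adjusted p = 0.332, limma). Thus neither ventricular form was called in either direction.

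The fast skeletal forms did not separate the groups. Myl1 had log2 values of 7.973, 8.003 and 7.777 in WT and 7.92, 7.76 and 7.90 in TG. The groups overlapped, and the log2 fold change was -0.059 (SE 0.083, adjusted p = 0.755, limma). Mylpf, the partner of Myl1 in fast muscle, had log2 values of 6.23, 6.21 and 6.51 in WT and 6.40, 6.09 and 6.14 in TG. Mylpf also overlapped between groups, at -0.11 (SE 0.12, adjusted p = 0.696, limma). It was the only member whose mean lay below 6.91, the median over all probe sets.

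Myl6, the essential light chain of smooth muscle and non-muscle cells, had log2 values of 11.74, 11.72 and 11.72 in WT and 11.78, 11.76 and 11.75 in TG. The groups did not overlap, yet the gap was 0.011 and the log2 fold change 0.038 (SE 0.045, adjusted p = 0.716, limma). The 6 probe sets that carry the Myl6 symbol alone gave log2 fold changes of 0.0084 to 0.038, and none was called. Myl9, the smooth muscle regulatory light chain, had log2 values of 9.77, 9.70 and 9.81 in WT and 9.68, 9.49 and 9.65 in TG. All TG mice were below all WT mice, by a gap of 0.020. The log2 fold change of Myl9 was -0.15 (SE 0.069, 95% confidence limits -0.32 to 0.015) and did not pass the test (adjusted p = 0.355, limma).

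Counted without any model, 3 of the 8 members (Myl4, Myl7 and Myl9) had all TG mice below all WT mice, and 3 (Myl2, Myl3 and Myl6) had all TG mice above. Over all probe sets such separations were common, at 12.1% for TG below and 11.3% for TG above. The gaps of 0.40 and 0.39 in Myl4 and Myl7 compare with gaps of 0.065 in Myl2 and at most 0.020 in Myl3, Myl6 and Myl9.

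**Figure D2:**
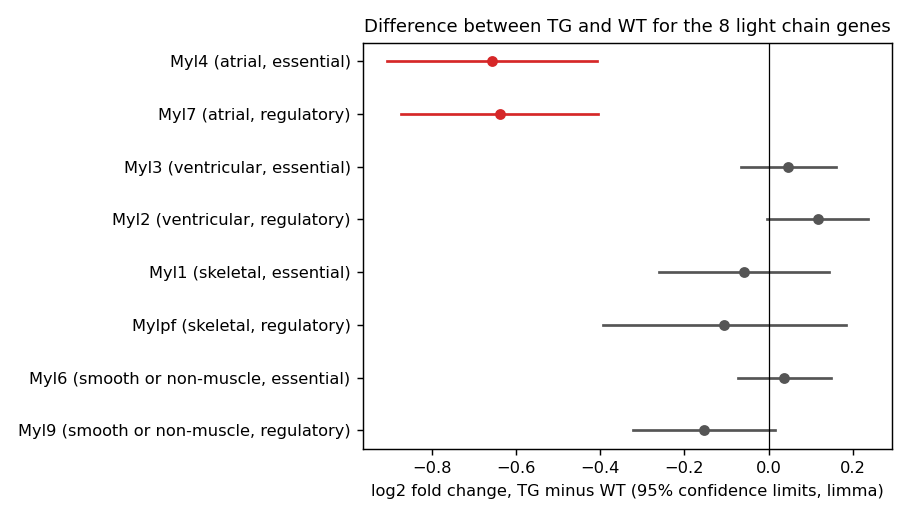
Log2 fold change (horizontal axis, TG minus WT) of the 8 light chain genes with 95% confidence limits from limma, red where B was above 0. Myl4 at -0.66 and Myl7 at -0.64 stand apart on the left, and the other 6 lie between -0.15 and 0.12.

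The balance of atrial against ventricular forms was taken within each mouse, as the log2 value of the atrial gene minus that of its ventricular counterpart, so that scaling of whole arrays cancels. With the WT mean set to 0, the balance of Myl4 against Myl3 was 0.080, -0.20 and 0.11 in WT and -0.68, -0.68 and -0.75 in TG. All TG mice were lower, by 0.70 on average, a ratio of 1.63-fold. The balance of Myl7 against Myl2 was 0.15, -0.15 and 0.0017 in WT and -0.79, -0.68 and -0.79 in TG. Here too every TG mouse was lower than every WT mouse, by 0.76 on average or 1.69-fold. The two-sided exact permutation test gave p = 0.1 for each balance (adjusted p = 0.1 over the 2), the smallest value that 3 mice against 3 allow, so neither can pass 0.05.

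Within the atrial pair, in contrast, the balance of Myl4 against Myl7 changed by only -0.017 between groups (exact permutation p = 0.7). Within the ventricular pair, the balance of Myl2 against Myl3 was higher in TG by 0.070 (exact permutation p = 0.1). Both within-pair balances were added after the data had been seen.

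**Figure D3:**
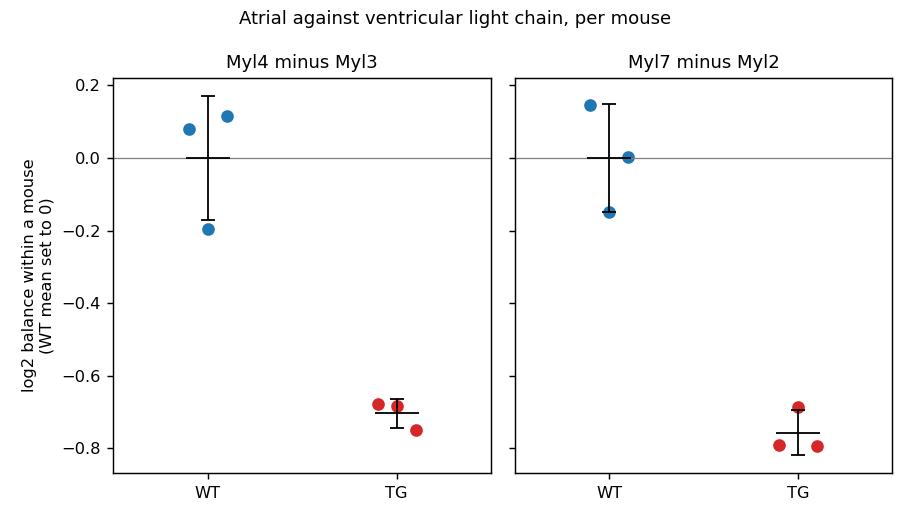
Log2 balance within each mouse (vertical axis, WT mean set to 0) of Myl4 against Myl3 and of Myl7 against Myl2, with mean and SD in black. The 3 TG mice sit between -0.79 and -0.68, below the WT mice, which range from -0.20 to 0.15.

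Over the 6 mice, Myl4 and Myl7 were each the gene most alike to the other. Among genes at or above the median level with a range of at least 0.5 over the 6 mice, Myl7 had the highest Pearson r with Myl4 (0.985), and Myl4 had the highest with Myl7. Next for Myl4 came Ndrg4 (0.965), Wif1 (0.964), Csrp2 (0.960) and Ppil1 (0.948), and next for Myl7 came Wif1 (0.971), Csrp2 (0.960), Abracl (0.953) and Fos (0.944). Wif1 encodes a secreted inhibitor of Wnt signalling and Csrp2 encodes a LIM domain protein found in smooth muscle cells. These values describe 6 points that share arrays and fall into the 2 groups, so the difference between groups makes up most of each r.

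Since Myl4 and Myl7 are atrial genes, the other atrial markers were read beside them, with all light chains kept off the list. Of 15 atrial markers, none was called at B above 0, while 6 were lower and 3 were higher at an unadjusted p under 0.05, against 8.5% and 6.97% of all probe sets. Nppa, the atrial natriuretic peptide, differed by -0.22 (SE 0.087), Sln, the atrial calcium pump inhibitor sarcolipin, by -0.32 (SE 0.099), and Mybphl, a myosin binding protein of the atria and conduction system, by -0.46 (SE 0.096). All 3 had TG mice below WT mice without overlap. Sln and Mybphl were among the 5 markers of the list with means below the table median. Of the 15 markers, 7 separated with TG below and 3 with TG above, against 12.1% and 11.3% of all probe sets. On the other side, Kcna5, a potassium channel of atrial repolarization, differed by 0.38. The list median was -0.14, and the mean log2 value of the list ran from 8.19 to 8.24 in WT and from 8.09 to 8.12 in TG. No defining atrial marker was as far from WT as Myl4 and Myl7. The part of atrial tissue in the dissected ventricles in these differences was not tested.

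The ventricular, skeletal and smooth muscle lists were read in the same way. Of 9 ventricular markers, the only call was Myh7, the slow heavy chain, described below. At an unadjusted p under 0.05, 1 ventricular marker was lower and 2 were higher (8.5% and 6.97% of all probe sets), and the list median was -0.025. The ventricular transcription factors Irx4 and Hey2 differed by -0.025 and -0.053, Irx3, another factor of this family, by -0.21 and Gja1, the gap junction protein of working myocardium, by 0.20. The last 2 separated the groups without overlap, as did 12.1% of all probe sets with TG below and 11.3% with TG above. Of 13 skeletal muscle markers none was called, 8 had means below the table median, and the list median was -0.087. At an unadjusted p under 0.05, 2 were lower and 1 was higher. Tnnt3, Actn3 and Myh4, fast skeletal sarcomere genes, differed by -0.17, -0.13 and -0.18, and Myog, a transcription factor of skeletal myogenesis, by -0.16. These genes had all TG mice below all WT mice. In the other direction, Casq1, the calcium store protein of fast muscle, differed by 0.33 and Ckm, muscle creatine kinase, by 0.11. Both had all TG mice above all WT mice. Of the 13 skeletal markers, 5 separated with TG below and 3 with TG above, against 12.1% and 11.3% of all probe sets. Of 10 smooth muscle markers none was called, 4 had a higher mean in TG, and none was higher at an unadjusted p under 0.05. At that threshold 3 were lower, against 8.5% of all probe sets: the smooth muscle heavy chain Myh11 (-0.31), smooth muscle actin Acta2 (-0.22) and calponin Cnn1 (-0.43). The groups overlapped for Cnn1 (SE 0.16), whose mean lay below the table median. Tagln, transgelin of smooth muscle, differed by -0.18, with overlapping groups. Smtn, smoothelin of contractile smooth muscle, differed by 0.076 with all TG mice above WT. Of the 10 smooth muscle markers, 4 separated with TG below, Myh11 and Acta2 among them, and 2 with TG above. Over all probe sets these shares were 12.1% and 11.3%. The list median was -0.11, beside -0.15 for Myl9. Their part in the value of Myl9 was not tested.

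**Figure D4:**
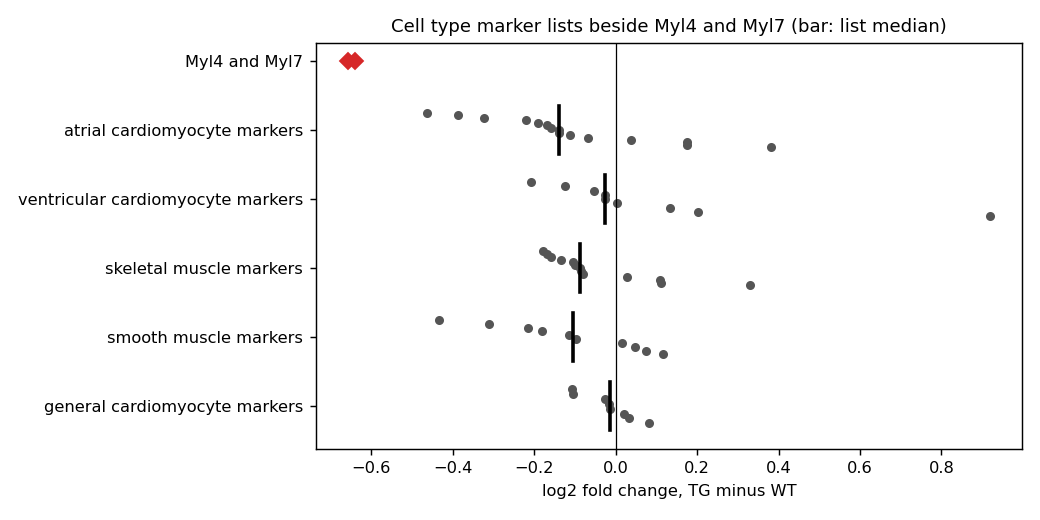
Log2 fold change (horizontal axis, TG minus WT) of each gene of 5 cell type marker lists (grey points, bar at the list median) and of Myl4 and Myl7 (red). Myl4 and Myl7 lie to the left of every point of all 5 lists, and the only point beyond 0.5 is Myh7 in the ventricular list.

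Light chains bind the neck of the heavy chains, so the 12 heavy chain genes were read as partners. Only Myh7, the slow (beta) heavy chain of the fetal ventricle and slow muscle, was called, where 0.366% of all probe sets were called. Its log2 values were 9.28, 8.90 and 9.29 in WT and 10.01, 10.06 and 10.17 in TG. Every TG mouse stood above every WT mouse, and Myh7 rose by 0.92 (SE 0.12, adjusted p = 0.200, limma), or 1.89-fold. WT replicate 2 had the lowest Myh7 of the WT mice, as it did for Myl4 and Myl7. The call was lost when any 1 of the TG mice was left out.

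Myh6, the fast (alpha) heavy chain of the adult mouse ventricle, differed by 0.032. By unadjusted p, the next heavy chains were Myh11, Myh14 (0.14), a non-muscle form, and Myh4 (-0.18), a fast skeletal form. At an unadjusted p under 0.05, 2 of the 12 heavy chains were lower and 3 were higher, against 8.5% and 6.97% of all probe sets. The higher ones were Myh7, Myh14 and Myh7b (0.22, SE 0.083, overlapping groups). Myh7b is the gene whose intron encodes miR-499, and the part of transgene RNA in its value was not tested. The list median was 0.012. Thus a heavy chain of the fetal ventricle was higher in the same mice in which Myl4 and Myl7 were lower.

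Neither the other light chain genes measured (Myl6b, Myl10, Myl12a and Myl12b) nor Mylip gave a call. Mylip, a ubiquitin ligase first found by its binding to myosin regulatory light chain, differed by -0.29 (SE 0.10). Myl12a and Myl12b, the non-muscle regulatory light chains, differed by 0.17 (SE 0.061) and 0.22 (SE 0.089), and Myl6b, an essential form of slow skeletal and non-muscle cells, by -0.087. Mylip had all TG mice below WT and Myl12a and Myl12b had all TG mice above, by gaps of at most 0.059. Such separations were found in 12.1% (TG below) and 11.3% (TG above) of all probe sets.

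The enzymes that add phosphate to regulatory light chains, or remove it, gave 1 call among 15 measured genes, where 0.366% of all probe sets were called. Mylk4, a member of the myosin light chain kinase family, had log2 values of 11.10, 11.18 and 11.20 in WT and 11.58, 11.65 and 11.66 in TG. The groups were clearly apart, with a gap of 0.38. Mylk4 rose by 0.47 (SE 0.055, B = 1.42, adjusted p = 0.174, limma), or 1.38-fold. The call was lost without WT replicate 1, WT replicate 2, TG replicate 2 or TG replicate 3.

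Mylk3, the cardiac kinase that phosphorylates Myl2, differed by 0.11 (SE 0.062) and was not called. Mylk, the smooth muscle kinase, differed by 0.0024, and Mylk2, the skeletal muscle kinase, by -0.087. Ppp1ca, Rock1 and Ppp1cb had the next smallest p-values after Mylk4, at log2 fold changes of 0.14, 0.12 and 0.11. Ppp1ca and Ppp1cb are catalytic subunits of protein phosphatase 1, and Rock1 is a kinase that inhibits myosin phosphatase. The mean was higher in TG for 11 of the 15 genes, while 53.9% of all probe sets had a lower mean. At an unadjusted p under 0.05, 3 of the 15 were higher and none was lower, against 6.97% and 8.5% of all probe sets. The list median was 0.060.

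**Figure D5:**
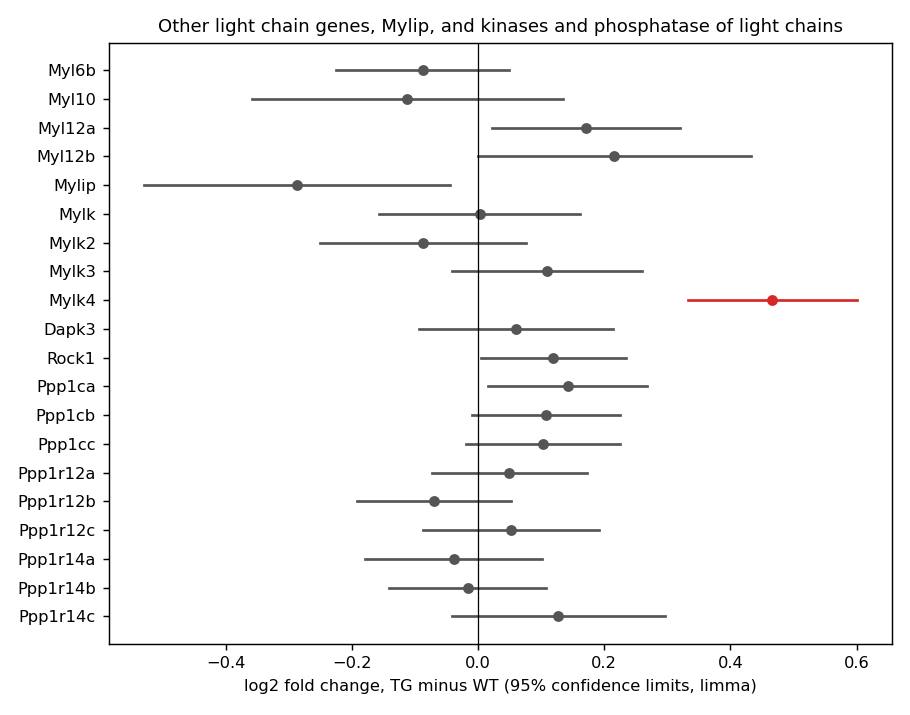
Log2 fold change (horizontal axis, TG minus WT) of 4 other light chain genes and Mylip (top) and 15 genes of light chain kinases and phosphatase, with 95% confidence limits from limma, red where B was above 0. Mylk4 at 0.47 is the only red gene, and all others lie between -0.29 and 0.22.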

How the data were processed

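RNA from 3 WT and 3 TG ventricles was hybridised to Affymetrix Mouse Gene 1.0 ST arrays, 1 per mouse. The deposited log2 values were made by the authors with RMA (version not given in the sources used here), which corrects background, normalizes across arrays and summarises probes, and which compresses differences of dim and of very bright probe sets. No column was left out. Gene names came from the platform annotation: 21789 of 35556 probe sets had 1 symbol, 1621 several and 12146 none. Symbols were updated by Entrez number through RefSeq (GRCm38.p6), which changed 0.

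Here, TG was compared with WT with lmFit and eBayes of limma 3.58.1 under R 4.3.3 (no trend, assumed share of changed probe sets 0.01) on all probe sets, with Benjamini-Hochberg adjustment over all of them. A call is B above 0. The code was tested on simulated data. The WT mice were littermate controls, and the number of arrays limits precision. The members and all 10 lists were chosen with earlier results of these data known. Genes named besides the members were those at B above 0, fixed defining markers, and the 5 genes with the highest r to Myl4 or Myl7. Up to 4 of the heavy chain, light chain and kinase lists with the smallest p were named as well. Kcna5, Irx3, Gja1, Myog, Casq1, Ckm, Smtn, Acta1, Dkk3 and Hsp90aa1 were picked with their values known. So were Mybpc3, Tnni1, Myh6, Myh7b, Mylk, Mylk2, Mylk3, Myl10 and the neighbouring genes. Of the listed genes, 2 had no probe set with 1 symbol and are not analysed here. Alternatives changed the probe sets tested, scaling, moderation, weights, the replicate block, the assumed share and the mice used.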

Additional observations from a re-analysis of the deposited data

How the results depend on the processing

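Both atrial against ventricular balances were recomputed after a second quantile normalization and with each mouse left out. They kept their direction after the normalization (-0.74 and -0.78). Since all TG mice lay below all WT mice, leaving out 1 mouse could change only the size, not the direction. Balances of Myl4 against Myl3 ran from -0.80 to -0.65 with 1 mouse left out, and of Myl7 against Myl2 from -0.83 to -0.68. Myl4 and Myl7 kept B above 0 in 9 of 16 alternatives each. For 2 of these the outcome was fixed in advance. The mean over probe sets repeats the main fit, as each gene has 1 probe set, and the larger assumed share raises B by design. The count of light chain genes called (2) fell to 0 with each array centred on its median and to 0 with a replicate block, and ran from 0 to 2 with 1 mouse left out. Without WT replicate 2 it was 2. Of the other members, the sign turned only for Myl6, to -0.038 after a second quantile normalization. None of these 6 was called in any alternative.

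Over all probe sets, the 130 calls at B above 0 became 287 with an intensity trend, 714 with an assumed share of 0.05, 69 with a replicate block, and 29 to 112 with 1 mouse left out. The 2 probe sets at an adjusted p under 0.05 became 52 among the brighter probe sets, 9 among those with 1 symbol, 26 with a trend, 0 with a block and 0 to 1 with 1 mouse left out. The atrial list gained 1 call, Dkk3, among probe sets with 1 symbol.

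The labels number replicates alike in both groups and do not say whether the numbers pair the mice. Deviations of same-numbered mice correlated at 0.024, -0.00044 and 0.057 over all probe sets. Differently numbered mice were not compared, so these values cannot decide whether the numbers pair the mice. The fits of Mylk4 and Myh7 under these alternatives were added after seeing the data, and kept B above 0 in 11 and 12 of 15. The larger assumed share, which raises B by design, is counted among them. The cause of each lost call was not tested.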

Other observations

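Sarcomere genes that switch isoform around birth were read beside the light chains. Of 9 such genes, 2 were called, Myh7 and Acta1, both higher in TG, where 0.155% of all probe sets were called higher. The mean was lower in TG for 4 of the 9. Acta1, skeletal actin of the fetal heart, was higher by 0.68 (SE 0.055) on the log2 scale, with an adjusted p of 0.0785 (limma). Tnni1, the slow skeletal and fetal cardiac troponin I, differed by 0.042, and Acta2, also an actin of the embryonic heart, by -0.22. Myl4 and Myl7, which the embryonic ventricle also makes, were lower in the same TG mice.

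Among 8 genes of myosin binding and assembly none was called. The mean was lower in TG for 4 of the 8 and higher for 4. Mybphl, also on the atrial list, differed most, by -0.46 (SE 0.096), with all TG mice below all WT mice. Mybpc3, cardiac myosin binding protein C, differed by -0.015. Hsp90aa1, a chaperone of myosin folding, differed by 0.43 (SE 0.19), with overlapping groups. Genes next to the members on the chromosome, by their order in RefSeq (GRCm38.p6), numbered 29 with a probe set, and none was called. Kansl1, Cdc27 and Itgb3 beside Myl4, and Aebp1, Pold2 and Ykt6 beside Myl7, were among them.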
